A study of Homo sapiens with 4 samples.

Results

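H3K27 acetylation was examined at MYC, MYB and MYCN and over a long stretch of chromosome 8 downstream of MYC in REH and 697. These are 2 human B-cell precursor acute lymphoblastic leukemia (BCP-ALL) cell lines. REH carries the ETV6/RUNX1 fusion and has lost the other ETV6 allele, while 697 lacks this fusion. Both were grown untreated under the same conditions, and each line gave 1 ChIP library and 1 input library of the same cells, so every difference given here is without a replicate check and no test was possible. The windows were the hg19 gene spans to the nearest kb with 10 kb on each side, which gave 26 kb for MYC, 59 kb for MYB and 28 kb for MYCN. The 2236 kb of chromosome 8 that follow the MYC window were described apart, in 100 kb bins. A peak was a member when it overlapped a window by at least 1 bp, which held for 71 peaks of REH out of 44626 and for 88 of 697 out of 74504. The windows were set from gene positions and no measured value, although the members were chosen with earlier results of these data known.

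MYC and MYCN are closely related basic helix-loop-helix transcription factors that pair with MAX and drive growth and proliferation, and MYB is a DNA-binding factor that blood progenitors need. MYC is expressed in most dividing blood cells, whereas MYCN belongs mainly to embryonic and neural tissue and is an oncogene of neuroblastoma. The MYC gene lies at the edge of a long gene desert, in which the lncRNA genes PVT1 and CCDC26 are found and in which distal enhancers active in blood cells have been described, including one bound by NOTCH1 in T-cell leukemia. H3K27ac marks active promoters and enhancers, and long uninterrupted stretches of it are common at genes of cell identity.

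The peak lists were called from 65241657 filtered ChIP tags in REH and 68911420 in 697. Peaks covered 67.9 Mb of the genome in REH and 1.49 times as much in 697, so that more covered bases in 697 than in REH is the usual state of these lists. The B-lineage genes CD79A, CD79B, PAX5 and EBF1 bore peaks in both lines. Of 3 genes of other lineages, the T-cell gene CD3E had no peak in REH and 1666 bp under a peak in 697. The myeloid gene MPO had 9445 bp in REH and 8457 bp in 697, and LYZ had 1664 and 1757 bp.

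The start of MYC lay under a peak of nearly the same length in both lines. In REH, 1 peak of 4754 bp lay at chr8:128746607-128751360, from 1.4 kb before to 3.4 kb past the start of the gene. In 697, a peak of 4729 bp lay at chr8:128747095-128751823, from 0.9 kb before to 3.8 kb past the start. The peaks shared 4266 bp, and their lengths differed by a ratio of 1.01. Each belonged to the long peaks of its list, since 3.75% of REH and 3.44% of 697 peaks were at least as long. The MYC window also held a second 697 peak of 438 bp, 9.6 to 9.1 kb before the gene, where REH had none. Together, peaks covered 4754 bp of the window in REH and 5167 bp in 697, which is 1.09 times as much. Without the 438 bp peak, among peaks of at least 1000 bp, the sign of this small difference was turned, with 4754 against 4729 bp. It was also turned with 50 kb on each side, at 7469 against 6429 bp, and at −log10(p) of at least 10, at which the 697 peak over the start was lost and 4754 bp in REH stood against 438 bp. Of all 26 kb windows tiled over the genome, 24.9% had a REH peak and 30.1% a 697 peak, and 2.97% and 4.92% were covered to at least the extent of the MYC window.

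MYCN had a peak in REH and none in 697. The REH peak of 1659 bp lay at chr2:16080063-16081721, from 0.1 to 1.7 kb past the start of the gene as rounded to the kb. It was of ordinary length, with 30.4% of its list at least as long, and no other peak of either line fell in the 28 kb window. Among 28 kb windows of the genome, 26.1% had a REH peak and 31.1% a 697 peak, so that a single peak, or none, is common for a window of this size. MYCN was thus the member with a peak in 1 line only, at 1659 against 0 bp. It was the gene window that passed the rule used here for a difference, at least 2 times the covered bases or a peak in 1 line only. The share of 28 kb windows passing this rule was not computed. Of 48 kb windows, those without any peak included, 10.3% passed it towards REH and 19.4% towards 697. Nothing is therefore read from the passing of MYCN. At −log10(p) of at least 10 this peak was lost and both lines were at 0 bp.

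The start of MYB lay under a peak in both lines, and the single peak over it was longer in REH. The REH peak at chr6:135499787-135506895 was 7109 bp long and reached from 2.2 kb before to 4.9 kb past the start of the gene, and 1.38% of REH peaks were at least as long. The 697 peak at chr6:135501115-135505436 was 4322 bp long and lay wholly within the REH peak, from 0.9 kb before to 3.4 kb past the start. The REH peak was therefore 1.64 times as long. A second 697 peak of 1745 bp, 3.9 to 2.2 kb before the gene, met the REH peak over 19 bp. With the gap between them, the 697 peaks thus reached from 3.9 kb before to 3.4 kb past the start. Merging peaks at most 1000 bp apart did not join them. The ratio of 1.64 therefore compares single called peaks and depends on where the 697 call was broken. A second REH peak of 927 bp at chr6:135512091-135513017, inside the gene, was met by no 697 peak. In all, peaks covered 8036 bp of the MYB window in REH and 6067 bp of it in 697, or 1.32 times as much in REH and under the 2-fold rule. With 50 kb in place of 10 kb on each side the order was turned, and 17018 bp lay under REH peaks and 30135 bp under 697 peaks. Of all 59 kb windows, 39.0% had a REH peak and 42.3% a 697 peak, while 3.66% and 10.4% were covered to at least the extent of the MYB window.

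**Figure D1:**
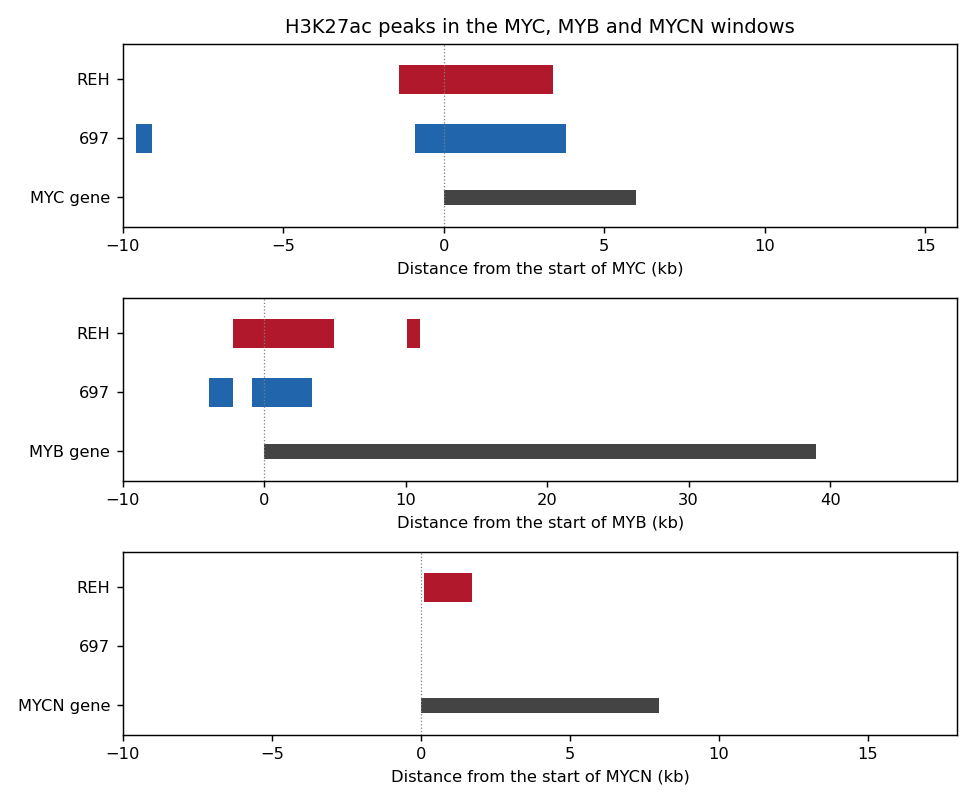
H3K27ac peaks of REH (red) and 697 (blue) in the windows of MYC, MYB and MYCN, against the distance in kb from the start of each gene, with the gene as a dark bar. A peak of similar length sat on the start of MYC in both lines. The single REH peak on the start of MYB was longer than the 697 one, before which lay a further 697 peak. At MYCN, REH had a peak of 1659 bp and 697 none.

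The MYC promoter was not among the promoter sequences at hand and is not shown. The promoters of MYB and MYCN, genes with a peak over the first kb in both lines and in REH only, respectively, are shown for comparison of their base composition. They are the RefSeq sequences on GRCh38.p14, plus strand, from 250 bases before to 50 bases after the gene start, at chr6:135181058-135181357 and chr2:15940300-15940599. Capitals mark the GC box GGGCGG, the MYB core AACNG and the E-box CACGTG bound by MYC with MAX, on either strand.
MYB: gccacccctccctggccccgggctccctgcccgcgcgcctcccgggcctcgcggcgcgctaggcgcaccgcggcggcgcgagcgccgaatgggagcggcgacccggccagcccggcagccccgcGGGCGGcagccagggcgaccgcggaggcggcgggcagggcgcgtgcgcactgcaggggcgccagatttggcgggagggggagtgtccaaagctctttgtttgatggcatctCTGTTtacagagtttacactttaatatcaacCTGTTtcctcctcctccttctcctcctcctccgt
MYCN: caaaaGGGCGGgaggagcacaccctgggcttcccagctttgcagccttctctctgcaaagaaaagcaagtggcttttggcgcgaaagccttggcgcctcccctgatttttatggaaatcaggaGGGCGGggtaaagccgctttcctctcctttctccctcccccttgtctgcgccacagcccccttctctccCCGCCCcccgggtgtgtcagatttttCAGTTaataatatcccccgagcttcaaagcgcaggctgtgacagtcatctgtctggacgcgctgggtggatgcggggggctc

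The MYB promoter held 35 CpG dinucleotides and 71.0% G and C, and 14.1% of 35116 RefSeq promoters had as many CpG. The MYCN promoter held 14 CpG and 58.7% G and C, both at the median of all promoters. The MYB promoter had 1 GC box and 2 MYB cores, and the MYCN promoter had 3 GC boxes and 1 MYB core. Over all promoters, 45.0% held the GC box and 77.2% the MYB core. Neither promoter held the E-box, which 7.26% of promoters did. These are matches of letters and not bound sites.

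Downstream of MYC, the lines had similar amounts of sequence under peaks in all, and peaks of both lines gathered over PVT1 and CCDC26, in different proportions. REH had 67 peaks of 187 to 13804 bp over the 2236 kb, covering 131443 bp, and 697 had 84 peaks of 185 to 27992 bp, covering 142462 bp. The ratio of 697 to REH was 1.08, against 1.49 for the whole lists. The order of these totals was not stable. REH had more among peaks with a deposited q-value of at most 5% (119587 against 93677 bp). REH also had more with equal numbers of the longest peaks (131443 against 126800 bp) and at −log10(p) of at least 10 (22925 against 2388 bp). Bases under peaks in both lines came to 67279, which is 51.2% of the REH and 47.2% of the 697 bases covered. Gene starts past CCDC26 were not mapped, so peaks in that part cannot be told apart as promoter or distal peaks.

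PVT1, which starts shortly after MYC, had more bases under called peaks in REH. Over the 306 kb of this gene, 29 REH peaks covered 56933 bp and 31 697 peaks covered 28237 bp, a ratio of 2.02. The greatest contrast lay near the start of PVT1. There, REH had peaks of 9236 bp at chr8:128806339-128815574 and of 9202 bp at chr8:128818530-128827731, or 58.3 to 67.6 kb and 70.5 to 79.7 kb from the start of MYC. In REH, 0.715% and 0.719% of all peaks were at least as long. 697 peaks covered 48.1% of the first and 11.7% of the second, and the longest 697 peak there was 3282 bp. REH also had more covered bases over PVT1 under the alternatives in which either line kept a peak there. The values ran from 48706 against 21132 bp (peaks of at least 1000 bp) to 49712 against 9282 bp (deposited q-value of at most 5%).

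CCDC26, a lncRNA gene at the far end of the desert, had more bases under peaks in 697, but by less than the 2-fold rule asks. Over its 328 kb, 18 REH peaks covered 47445 bp and 27 697 peaks covered 85741 bp, 1.81 times as much, against 1.49 times for the whole lists. This gene held 36.1% of the REH and 60.2% of the 697 bases under peaks in the stretch, while PVT1 held 43.3% and 19.8%. At a deposited q-value of at most 5% the lines were closer, with 45295 bp in REH and 63823 bp in 697. No whole-list ratio was computed for filtered peaks, so 1.81 against 1.49 holds for the full lists only. The order at CCDC26 was turned at −log10(p) of at least 10, at which 20699 bp remained in REH and 265 bp in 697.

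The longest peak of the stretch was the 697 peak of 27992 bp at chr8:130546662-130574653, centred 1.81 Mb downstream of the start of MYC, which ranked 9 by length among the 74504 697 peaks. REH had 2 peaks over it, which covered 52.0% of its bases, the longer of them 12762 bp at chr8:130558650-130571411. Next to it, 697 had a peak of 9243 bp at chr8:130579868-130589110, of which REH peaks covered 2.02%. A pair of peaks at 1.85 Mb was alike in both lines, with 13804 bp at chr8:130593841-130607644 in REH and 14709 bp at chr8:130592982-130607690 in 697, and the REH peak lay wholly inside the 697 peak. At 1.94 Mb, 697 had 14436 bp at chr8:130685516-130699951, and REH had 5490 bp at chr8:130689328-130694817, again inside the 697 peak. Both of these peaks reached past the end of CCDC26. In these places the REH peaks were narrower and lay within those of 697. The REH peak of 4834 bp at chr8:130458430-130463263, inside CCDC26, met a 697 peak of 860 bp only.

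Peaks of either line at most 10 kb apart were joined into clusters, a distance chosen after the data and the outcome of another distance had been seen. The cluster from 1.80 to 1.86 Mb spanned 65.4 kb, of which REH peaks covered 46.7% and 697 peaks 85.4%, and all 30522 bp of REH peaks in it lay under 697 peaks. The cluster from 1.89 to 1.96 Mb spanned 73.5 kb, and peaks covered 14.3% of it in REH and 43.5% in 697. Between PVT1 and CCDC26, a cluster of 9.5 kb at 1.43 to 1.44 Mb consisted of REH peaks of 3178 bp at chr8:130178511-130181688 and 5268 bp at chr8:130182771-130188038, and no 697 peak was called there. Inside CCDC26, a cluster from 1.70 to 1.73 Mb had 6864 bp under REH peaks and 860 bp under a 697 peak.

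**Figure D2:**
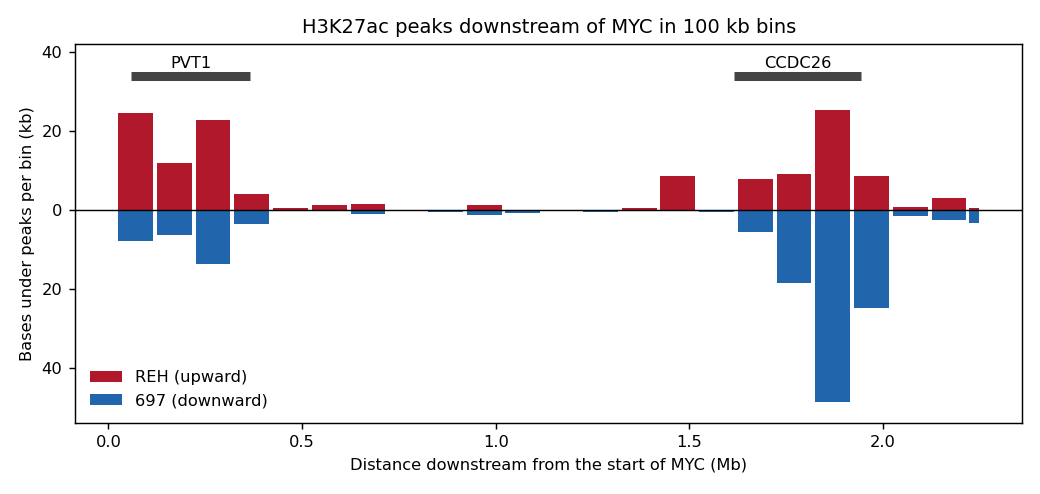
Kilobases under H3K27ac peaks in each 100 kb bin downstream of MYC, upward for REH and downward for 697, against the distance in Mb from the start of MYC. The REH bars were taller over PVT1, the 697 bars were taller over most of CCDC26, and the middle of the desert held few peaks.

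The bins showed the same layout. Of the 23 bins, of which the last held 36 kb, 17 had a REH peak and 17 a 697 peak, 73.9% in either line, against 49.1% and 50.4% of all 100 kb bins of the genome. Peaks of both lines were found in 13 bins and of neither in 2. Only REH had peaks in 4 bins, from 0.42 to 0.62 Mb and from 1.32 to 1.52 Mb. Only 697 had peaks in 4 others, starting at 0.82, 1.02, 1.22 and 1.52 Mb, each with 1 peak of 542 to 769 bp. Over the genome, bins without any peak included, 8.41% of bins had peaks in REH alone and 9.68% in 697 alone. The REH-only bin from 1.42 to 1.52 Mb stood out among these by its 8446 covered bp, the others having 430 to 1261 bp.

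By the 2-fold rule, 5 bins had more covered bases in REH and 8 in 697. That is 21.7% and 34.8% of the bins, against 13.1% and 22.1% over the genome. The genome shares count bins without a peak in either line, which cannot pass the rule. Such bins were 2 of the 23 here, so the shares are not like for like and no excess is read from them. In the first bin, from 0.02 to 0.12 Mb, REH had 24553 bp and 697 had 7839 bp, which is 3.13 times as much in REH. From 1.72 to 1.82 Mb, 697 had 18496 bp and REH 9131 bp, and from 1.92 to 2.02 Mb, 697 had 24940 bp and REH 8512 bp, ratios of 2.03 and 2.93 in favour of 697. The fullest bin in both lines, from 1.82 to 1.92 Mb, had 25394 bp in REH and 1.92 times as much, 48799 bp, in 697. Of all 100 kb bins, 0.716% had as many covered bases in REH and 0.197% in 697. The order of the bin counts by the 2-fold rule, 5 for REH and 8 for 697, was not stable. When each line kept its 44626 longest peaks, 8 bins had more in REH and 4 in 697. Among peaks of at least 1000 bp the counts were 6 and 3. They were 9 and 5 at a deposited q-value of at most 5%.

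**Figure D3:**
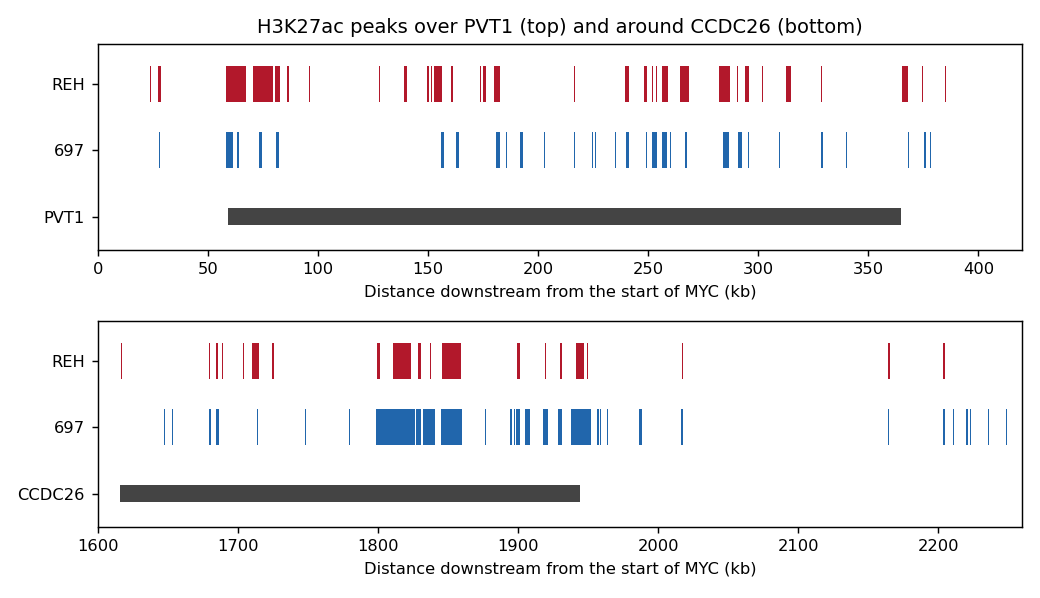
H3K27ac peaks of REH (red) and 697 (blue) over PVT1 and around CCDC26, against the distance in kb from the start of MYC, with the genes as dark bars. REH had peaks of 9236 and 9202 bp near the start of PVT1 at 58.3 to 79.7 kb, and 697 had a peak of 27992 bp inside CCDC26, over which REH had 2 separate peaks.

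Over all windows, 41 of the 71 REH peaks, or 57.7% (95% Wilson interval 46.2 to 68.5), overlapped a 697 peak, and 41 of the 88 697 peaks, or 46.6% (36.5 to 56.9), overlapped a REH peak. The whole lists gave 64.1% and 38.9%. The intervals cover counting error only and take the peaks as independent. Most of these peaks lie in the stretch downstream of MYC, so nothing about the whole lists is concluded from the intervals. The longest runs without a peak lay in different places. In REH, no peak lay in 402 kb, from 0.92 to 1.33 Mb, and in 697 none over 263 kb, from 0.38 to 0.64 Mb.

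The pileup values in the lists are given here but were not read as differences between the lines. At the start of MYC the deposited mean pileup was 33.64 in REH and 13.11 in 697, and over the start of MYB it was 30.43 and 15.37. Across neighbouring peaks of a list, however, the Spearman correlation was 0.618 in REH and 0.714 in 697 for pileup, but 0.0317 and 0.0451 for length. Across 24932 peaks that met exactly 1 peak of the other line, it was 0.025 between the lines for pileup and 0.473 for length. These are descriptions over peaks that share their libraries. Positions and lengths were therefore used, and any value that rests on the deposited p-values or q-values carries the same limit.

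The other genes of the MYC and MYB families, MAX, and genes related to MAX (together the network genes) had peaks in both lines in or near the gene. MAX is the dimer partner of MYC, while MNT, MXD1, MXI1 and MXD4 pair with MAX and oppose MYC, and MLX is a related MAX-like factor. All 9 genes placed had a peak in REH and in 697 within 10 kb of the gene, against 35.2% and 39.0% of genome windows of 48 kb, their median window. Those windows are not chosen to hold gene starts, as the gene windows are. At the gene start itself, 8 of the 9 had a peak in each line, and MXI1 had none there in either. The covered bases lay between 1013 and 8964 for REH and between 1262 and 9897 for 697. By the 2-fold rule 0 of the 9 had more in REH, against 10.3% of all such windows, those without any peak included. In 697, 2 had more, against 19.4% of them. These were MAX, where 4091 bp were covered in REH against 8983 bp in 697, and MYCL, the third MYC family gene, with 1013 against 2668 bp. With equal numbers of the longest peaks neither passed the rule. MYBL1 and MYBL2, the paralogues of MYB, had 1504 and 3377 bp in REH and 1262 and 2497 bp in 697. MNT had the most covered bases of the 9 genes in each line, with 8964 bp in REH and 9897 bp in 697.

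**Figure D4:**
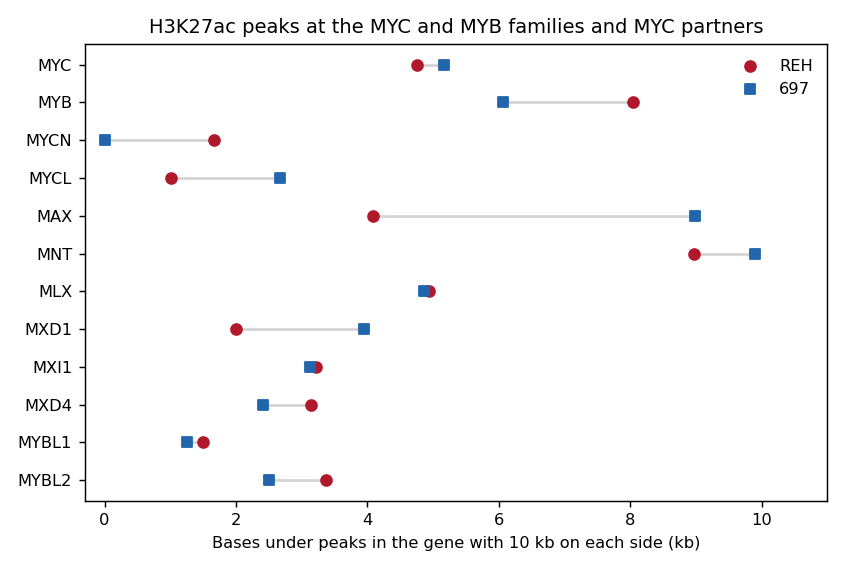
Kilobases under H3K27ac peaks in the window of each gene in REH (red circles) and 697 (blue squares). Shown are MYC, MYB and MYCN, the other MYC and MYB family genes, MAX, and genes related to MAX. The points of MYC, MLX and MXI1 lie close together, MAX and MYCL lie further right in 697, and MYCN is at 0 in 697.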

How the data were processed

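H3K27ac ChIP and input DNA of REH and 697 were sequenced as 1 library each. The authors mapped reads to hg19 with Bowtie (Bowtie2 in the submitters' processing notes) and, per the file headers, called peaks with MACS 2.1.0.20150731 in broad mode against the input of the same line, with 1 tag kept per position and q-value cutoffs of 0.05 (strong) and 0.1 (broad), while the study's methods name an earlier MACS version. The deposited lists give for each peak its position, its length, the mean pileup signal, the fold enrichment over local background as a linear ratio, and p-value and q-value as −log10. They hold no counts, and no depth per peak is known. Some called peaks have a deposited q-value above the broad cutoff of 0.1. Examples are −log10(q) of 0.54 at chr8:129049536-129050145 in REH and of 0.58 at chr8:128939811-128941125 in 697. The filter at 5% therefore acts on the deposited value and is not a false discovery rate of 5% per peak. Input libraries entered through the peak calls alone.

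The members and the gene lists were chosen with earlier results of these data known. The rule for named items was MYC, MYB, MYCN and their peaks, the 5 longest peaks per line downstream of MYC, bins with peaks in 1 line only, and the listed genes. Peaks named beyond it (the REH peaks of 3178 and 4834 bp) were chosen after their values were seen. Bases of a window under peaks were summed, and a difference was at least 2 times as many bases, or a peak in 1 line only. The background was the genome tiled from the first to the last peak of each chromosome. The hg19 spans of PVT1, CCDC26 and the other listed genes came from general knowledge, to the nearest kb, and those whose length differed by over 20% from RefSeq were left out (MGA, MXD3, HBS1L, GSDMC, VPREB1, CD3D and CD33). A further listed marker gene is not reported here. Coordinates were not moved between builds, and promoter sequences are from GRCh38. The interval arithmetic was tested on simulated data. Python 3.11.15, numpy 2.4.6, pandas 2.3.3, statsmodels 0.14.6 and matplotlib 3.10.9 were used.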

Additional observations from a re-analysis of the deposited data

How the results depend on the processing

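Of 70 alternative values for the comparisons, 31 were labelled the same, 30 moved and 9 turned direction. The same did not mean equal. A count could change within a fixed fold, such as bins with a REH peak from 17 to 12 among peaks of at least 1000 bp. A share could change within its Wilson interval. A covered-bp difference could change within a counting error that takes bases as independent, which they are not, so these labels are rough. Differences in covered bp are REH minus 697. At −log10(p) of at least 10 they were 4316 at MYC, 0 at MYB, MYCN and PVT1, 20537 over the stretch and 20434 at CCDC26. At a deposited q-value of at most 5% they were 25910 over the stretch, 40430 at PVT1 and -18528 at CCDC26, and 9 bins had more in REH and 5 in 697. Among peaks of at least 1000 bp they were 25 at MYC, 1042 at MYB, -4219 over the stretch, 27574 at PVT1 and -35656 at CCDC26, with 11 bins holding a 697 peak and 3 with more in 697. With equal numbers of the longest peaks they were 25 at MYC, 4643 over the stretch, 33525 at PVT1 and -34721 at CCDC26, with 8 bins higher in REH and 4 in 697 and 0 network genes higher in 697. Merging within 1000 bp gave 30487 at PVT1 and -41047 at CCDC26. Without flanks the difference at MYB was 2386, and 1 network gene was higher in REH and 0 in 697. With 50 kb on each side the differences were 1040 at MYC, -13117 at MYB and 2421 at MYCN. Bins of 50 kb gave 26 with a REH and 28 with a 697 peak, 10 higher in REH and 13 in 697. A 3-fold rule left 0 network genes higher in 697, and scoring by midpoint gave 45.1% of REH peaks shared. The alternatives for PVT1 and CCDC26 and the joining of clusters were chosen after seeing the data. With 1 library per line no replicate could be left out, and the depth behind single peaks is unknown.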

Other observations

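Beyond the windows, in regions chosen after the data were seen, the surroundings of MYB were densely acetylated in both lines. The stretch between HBS1L and MYB is known to hold enhancers of MYB in blood cells. In the 100 kb before the MYB window, REH had 8 peaks over 27274 bp, the longest of 10098 bp, and 697 had 13 peaks over 33043 bp, the longest of 7843 bp. Of these peaks, 7 in REH and 8 in 697 met a peak of the other line. In the 100 kb after the window, towards AHI1, REH had 9 peaks over 13264 bp and 697 had 13 over 27185 bp.

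The 700 kb before the MYC window held less, with 10 REH peaks over 8829 bp and 15 697 peaks over 16239 bp, the longest 2776 and 3740 bp. Around MYCN, neither line had a peak in the 100 kb before the window. In the 100 kb after it REH had 2 peaks over 1286 bp and 697 had 1 peak of 1593 bp.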
